A study of Homo sapiens with 24 samples.

Results

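The open chromatin of RES-A cells was compared with that of parental LNCaP cells while both were exposed to an androgen and to enzalutamide (ENZ) at once. The comparison used 6 of the 24 FAIRE-seq libraries of the series, the 3 LNCaP and the 3 RES-A libraries labelled as treated with both agents. LNCaP is an androgen-sensitive human prostate cancer line labelled sensitive to ENZ, and RES-A is an LNCaP derivative labelled resistant to it. Before treatment, both sublines spent 3 days in RPMI medium whose serum (5%) had been charcoal-stripped of steroids, and RES-A alone also received 10 µM ENZ in that time. Both were then given 10 nM dihydrotestosterone (DHT) together with 10 µM ENZ for 18 h (DHT+ENZ). The other 18 libraries came from the same sublines given the solvent DMSO, DHT alone or ENZ alone, 3 libraries per group. Because only RES-A was cultured in ENZ beforehand, the subline and the earlier exposure cannot be told apart, and RES-A is a single derived line.

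FAIRE-seq recovers DNA that is not held on nucleosomes, so that promoters and enhancers in use give peaks of reads. DHT is the most potent natural androgen, and androgen signalling acts at enhancers together with pioneer factors such as FOXA1 and HOXB13, where chromatin opens or closes around the hormone's target genes. ENZ is an antiandrogen that competes with the hormone, so DHT+ENZ is the setting in which both were present. A peak shows that DNA was accessible and is not a measure of transcription. Each library had its own deposited peak list, in which every peak carried a fold enrichment, the ratio of the reads stacked at its summit (pileup) to the number expected there.

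The 6 lists held 197482 to 254872 peaks in LNCaP and 183955 to 215975 in RES-A on the 24 main chromosomes. All lists were cut to their 50000 strongest peaks by p-value (top-ranked peaks), because the genome-wide background, recovered from pileup and fold enrichment, was 3.29 to 5.70 reads in the LNCaP libraries and 2.18 to 3.76 in the RES-A libraries. The top-ranked peaks had median lengths of 384 ± 28.4 bp in LNCaP and 369 ± 5.86 bp in RES-A (SD, n = 3). They covered 21 ± 1.60 Mb and 20.1 ± 0.376 Mb, and 17.7 ± 4.62 and 12.7 ± 1.53 of them were 1500 bp or longer. None of these measures of peak shape passed (exact permutation test, two-sided, adjusted p = 0.7, 0.7 and 0.3 over 3 measures), and the smallest p such a test can give is 0.1. The chromatin around prostate-lineage genes carried peaks in both sublines. The starts of KLK2, TMPRSS2, FOXA1 and HOXB13 held a peak within 1 kb in 24 of 24 libraries, and that of KLK3 in 18 of 24. Other prostate genes examined had fewer, with 14 of 24 at STEAP4, 4 at GATA2, 3 at HPGD and 0 at TRPM8. Such peaks were not particular to prostate genes, since the housekeeping genes GAPDH and ACTB had one in 24 of 24.

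KLK3 encodes prostate-specific antigen and KLK2 a related kallikrein protease, and both are textbook androgen-induced genes that lie next to each other on chromosome 19. Their promoters are shown because the deposited peaks lay just upstream of both starts and differed between the genes. The 250 bases before each RefSeq start (GRCh38.p14, gene strand, 5′ to 3′) are given in lower case, with the steroid hormone response half-site AGAACA, searched on both strands as AGAACA or TGTTCT, in capitals.
KLK3: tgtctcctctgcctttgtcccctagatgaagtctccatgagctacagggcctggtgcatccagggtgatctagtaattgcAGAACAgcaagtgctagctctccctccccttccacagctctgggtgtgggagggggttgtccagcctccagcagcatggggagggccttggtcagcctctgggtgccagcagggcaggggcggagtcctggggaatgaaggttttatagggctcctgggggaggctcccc
KLK2: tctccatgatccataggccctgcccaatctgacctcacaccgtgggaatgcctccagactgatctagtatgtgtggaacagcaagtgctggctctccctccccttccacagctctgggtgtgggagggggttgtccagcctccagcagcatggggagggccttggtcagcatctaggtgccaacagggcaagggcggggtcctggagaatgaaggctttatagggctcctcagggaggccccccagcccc
One match stood in the KLK3 sequence and 0 in the KLK2 sequence, and 12.4% of 35116 RefSeq promoters of the same length held at least 1. Only exact matches were counted. Before the stretch gcaagtgct, which both promoters share, KLK2 reads ggaaca, 1 base from the half-site, so the count of 0 does not show that a related site is absent.

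At the KLK3 start (hg19, within chr19:51357937-51358144) the LNCaP libraries had a peak with fold enrichments of 3.10, 3.89 and 3.60, whereas RES-A replicate 1 had no peak there and replicates 2 and 3 had 2.51 and 2.28. None of these peaks was among the top-ranked. At the KLK2 start the fold enrichment was 6.51, 7.18 and 6.20 in LNCaP and 9.64, 8.31 and 7.48 in RES-A. The KLK2 values did not overlap as deposited, but once each library was centred on its median region the difference was 0.03 ± 0.13 on the log2 scale (SE, limma adjusted p = 0.894). The low KLK3 peak was therefore measured in 5 of 6 libraries and the KLK2 peak in all 6.

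When top-ranked peaks of the 6 libraries were merged wherever they overlapped by at least 1 bp, 81106 regions resulted (median 426 bp). All 6 libraries shared 25478 of them (31.4%), in that the region held a top-ranked peak in each. A total of 6780 regions were called in 3 of 3 RES-A and 0 of 3 LNCaP libraries (RES-A-only regions, 8.36% of all regions), and 5876 showed the opposite pattern (LNCaP-only regions, 7.24%). The pairwise Jaccard index over bases was 0.600 to 0.615 within LNCaP, 0.647 to 0.659 within RES-A and 0.423 to 0.458 between the sublines, so the ranges within and between sublines did not overlap. Most regions of both sets were present in the other subline at lower rank. A peak of any rank stood in all 3 LNCaP libraries at 4154 of the RES-A-only regions (61.3%), and in all 3 RES-A libraries at 4241 of the LNCaP-only regions (72.2%). The opposite subline had no peak of any rank at 1083 RES-A-only regions (16.0%) and 615 LNCaP-only regions (10.5%).

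The strongest regions without any peak in the other subline kept their pattern outside DHT+ENZ. The region chr1:204666936-204667398 (hg19) had fold enrichments of 16.7, 15.2 and 14.4 in the RES-A libraries, and chr1:240759981-240760502 had 11.4, 12.1 and 11.5. Both were top-ranked in all 9 RES-A libraries of the other treatments and had no peak of any rank in the 9 LNCaP libraries. The third region, chr1:167667009-167667420, had 10.4, 11.6 and 9.98 in RES-A, and a low-ranked peak in 1 of the 9 other LNCaP libraries. In the other direction, chr17:7806581-7807460 had 13.4, 11.8 and 12.1 in the LNCaP libraries and was top-ranked in 8 of their 9 other libraries, while 3 of the 9 other RES-A libraries had a low-ranked peak. The region chr8:88377462-88378556 had 8.12, 7.57 and 6.93 in LNCaP, and chr5:148205783-148206228 had 8.32, 6.48 and 7.13. Both were top-ranked in all 9 other LNCaP libraries and in no RES-A library.

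The 18 libraries that did not define these sets were used to ask whether the subline difference recurred in the other treatments. RES-A-only regions were called at 86.0 to 88.0% in the RES-A DMSO libraries, 88.1 to 91.6% with ENZ and 73.5 to 77.9% with DHT. In LNCaP the same regions were called at 6.31 to 13.8% with DMSO, 9.06 to 14.1% with ENZ and 5.50 to 10.4% with DHT. Every RES-A library thus lay far above every LNCaP library, with means of 83.9 ± 6.70% and 9.49 ± 3.19% (SD, n = 9 each; difference 74.4 percentage points, exact permutation of subline labels within treatments, two-sided, p = 0.00025, the smallest this test can give). LNCaP-only regions were called at 41.9 to 88.8% in the 9 LNCaP libraries and at 6.28 to 16.0% in the 9 RES-A libraries (difference -63.4 points, same exact test, p = 0.00025). These libraries are cultures of the same lines that defined the sets. Both p-values therefore concern recurrence of the split in these lines, and not whether DHT+ENZ changed its size. The low end of the LNCaP range came from replicate 1 with ENZ (41.9%) and replicate 1 with DHT (61.2%), the 2 libraries of lowest depth. Over all merged regions the same 24 libraries called 42.3 to 61.5%.

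**Figure D1:**
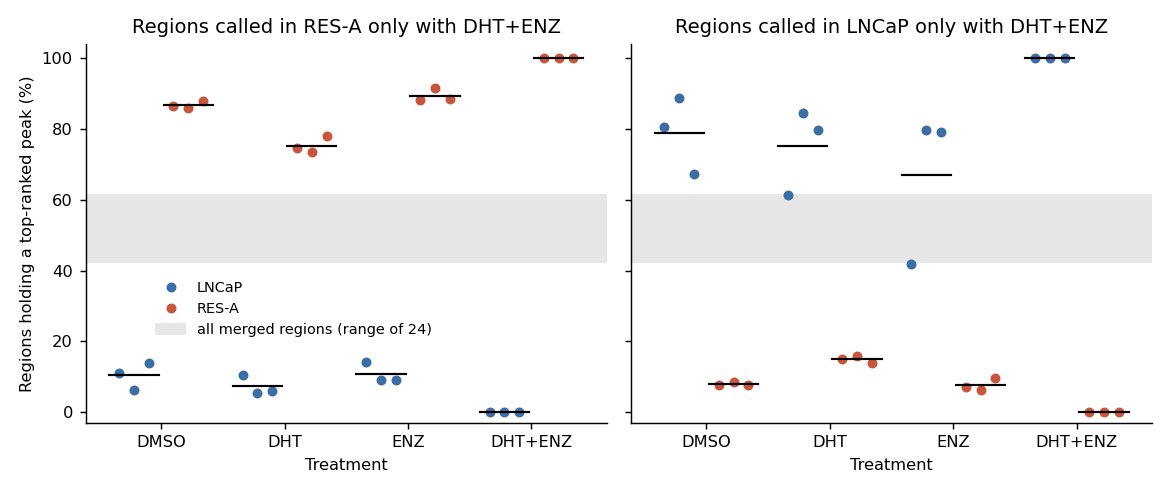
Percentage of the 6780 RES-A-only regions (left) and the 5876 LNCaP-only regions (right) that held a top-ranked peak in each of the 24 libraries, by treatment; points are libraries, lines are group means and the grey band is the range over all 81106 merged regions. The DHT+ENZ points at 0 and 100% are fixed by how the sets were defined, and in the other treatments the sublines separated without overlap.

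Among the RES-A-only regions, 3015 (44.5%) were called in all 9 other RES-A libraries, 4062 (59.9%) in none of the 9 other LNCaP libraries, and 1706 (25.2%) met both conditions. Among the LNCaP-only regions the corresponding numbers were 914 (15.6%) in all 9 other LNCaP libraries, 3678 (62.6%) in none of the 9 other RES-A libraries and 519 (8.83%) for both. Only 8 regions of each set were called in none of the other 18 libraries. The full split of 3 against 0 recurred for 57.8% of the RES-A-only regions with DMSO, 59.3% with ENZ and 46.6% with DHT, and the reversed split for at most 2 regions. For the LNCaP-only regions it recurred for 45.8%, 26.8% and 34.5%, in the same order, and was reversed for at most 3.

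Fold enrichment was next compared in the 67692 merged regions that had a peak of any rank in all 6 libraries. As deposited, the median of these regions was 6.45, 6.22 and 5.56 in LNCaP and 8.30, 7.54 and 6.93 in RES-A, so each library was centred on its median and differences are relative to it. After centring, 8803 regions (13%) had higher and 9143 (13.5%) lower fold enrichment in RES-A (limma, adjusted p under 0.05). The median difference was 0.63 among the higher and -0.65 among the lower regions on the log2 scale, with median SEs of 0.16 and 0.17. Without centring the median of all regions moved to 0.31 and the calls to 24517 higher and 2452 lower, so that 90.9% of calls were higher instead of 49.1%. Without centring 11255 of the 17946 centred calls stayed past the threshold in the same direction, and none passed it in the opposite direction. Summit pileup in place of fold enrichment called 16697 higher and 14523 lower, with 15784 of the 17946 calls in the same direction and 83 in the opposite one.

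**Figure D2:**
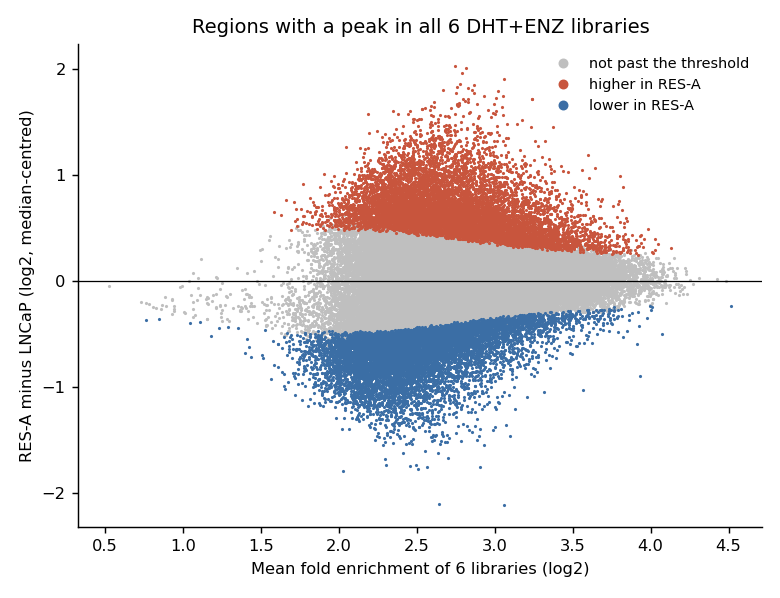
Difference in median-centred log2 fold enrichment between RES-A and LNCaP with DHT+ENZ against the mean log2 fold enrichment of the 6 libraries, 1 point per region measured in all 6 (67692 regions). The 8803 higher and 9143 lower regions past the limma threshold are coloured, and they lie on both sides of 0 in about equal number.

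The largest difference lay at chr19:58951437-58951903 (hg19), where the fold enrichment was 17.6, 15.1 and 14.1 in LNCaP and 5.66, 4.74 and 3.36 in RES-A, -2.11 ± 0.14 on the centred log2 scale (SE, limma adjusted p = 2.98e-08). Next came chr22:49968990-49969421, with 13.7, 11.8 and 9.56 against 4.40, 3.16 and 2.73 (-2.10 ± 0.16). In both regions the sublines were well apart, and the 9 other RES-A libraries called neither region while LNCaP called them in 9 and 8 of 9. The other regions lower in RES-A were chr9:101566401-101566980 (-1.80 ± 0.18), chr3:53119913-53120379 (-1.77 ± 0.17) and chr19:39953794-39954561 (-1.76 ± 0.21). In the last of these RES-A replicate 1, at 8.17, stood apart from replicates 2 and 3, at 3.95 and 2.94. The largest difference towards RES-A was at chr2:105097863-105098370, where LNCaP had 3.73, 2.54 and 2.78 and RES-A 15.6, 14.7 and 15.1 (2.02 ± 0.16, limma adjusted p = 1.38e-07). It was followed by chr7:73172790-73173283 (2.0 ± 0.15), chr9:136707246-136707685 (1.96 ± 0.15), chr19:2484101-2484663 (1.90 ± 0.13) and chr2:172949964-172950317 (1.85 ± 0.15). All 5 regions were top-ranked in all 9 other RES-A libraries and in 0, 0, 0, 1 and 2 of the 9 other LNCaP libraries, in that order.

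Whether DHT+ENZ changed the subline difference was tested in the 28108 regions that had a peak in all 24 libraries. The contrast compared RES-A minus LNCaP with DHT+ENZ against the mean of the same difference with DMSO, DHT and ENZ. No region passed (0% of 28108, limma, smallest adjusted p = 0.811), and 1009 regions (3.59%) had an unadjusted p under 0.05. The median size of the contrast was 0.11 on the log2 scale against a median SE of 0.18, so contrasts of that size were not detectable with these libraries. Among the 1925 of these regions that were higher in RES-A with DHT+ENZ, 94.9% had a positive difference with DMSO, 95.8% with DHT and 96.6% with ENZ, against 49.8%, 48.4% and 47.7% of all 28108 regions, with median differences of 0.37, 0.42 and 0.40 beside 0.51 with DHT+ENZ. Of the 3067 lower regions, 5.02% to 5.09% did so in the other treatments, and the median difference, -0.55 with DHT+ENZ, was -0.46 with DMSO and -0.47 under either single agent. Both sets were chosen by their DHT+ENZ values, which can enlarge the DHT+ENZ medians. These medians therefore do not show a larger difference with DHT+ENZ. Across the 28108 regions the DHT+ENZ difference correlated with those of DMSO, DHT and ENZ at r = 0.72, 0.74 and 0.73. These are correlations across regions, which are not independent replicates. Without the 2 libraries of lowest depth 58944 regions could be tested and 1 passed, at chr13:113540116-113540563 (-0.75 ± 0.12, limma adjusted p = 0.0251). The centred log2 fold enrichment there was 0.84 in LNCaP and 0.50 in RES-A with DHT+ENZ, whereas it was higher in RES-A with DHT (0.45 against 1.02), DMSO (0.92 against 1.1) and ENZ (0.68 against 1.13).

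The differences were not spread evenly along the genome. The share of top-ranked peaks lying in a 10-Mb window was larger in RES-A in 103 of 307 windows (33.6%) and smaller in 114 (37.1%, limma adjusted p under 0.05). On chromosome 6, 16 of 18 windows were larger in RES-A and none smaller, and on chromosome 1 it was 19 of 24 with 1 smaller. On chromosome 15, 8 of 9 windows were smaller and none larger, and on chromosome 4 it was 14 of 19 with 2 larger. The whole of chromosome 6 held 4.55 ± 0.0530% of LNCaP and 6.44 ± 0.0960% of RES-A top-ranked peaks (SD, n = 3), and chromosome 15 held 3.47 ± 0.0310% and 2.59 ± 0.0610%.

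The window at 80 to 90 Mb of chromosome 6 (chr6:80000001-90000000) held 31, 28 and 26 top-ranked peaks in LNCaP and 100, 101 and 106 in RES-A, 1.86 ± 0.06 on the log2 scale of shares (SE, limma adjusted p = 3.9e-08). The windows chr6:50000001-60000000 and chr6:40000001-50000000 followed (1.42 ± 0.08 and 1.06 ± 0.05). In the opposite direction chr13:60000001-70000000 held 97, 92 and 91 peaks in LNCaP and 17, 15 and 17 in RES-A (-2.52 ± 0.05, limma adjusted p = 5.66e-09). It was followed by chr8:30000001-40000000 (-1.44 ± 0.04) and chr4:90000001-100000000 (-1.42 ± 0.04). The local background recovered from the deposited peaks moved with these shares. Relative to each library's genome-wide background it was 0.05 ± 0.01 in LNCaP and 0.39 ± 0.04 in RES-A in the first window on the log2 scale (SD, n = 3), and 0.43 ± 0.04 and 0.12 ± 0.01 in the chromosome 13 window. Over the 307 windows the correlation of both differences was r = 0.82, as a description across windows that share libraries and depth, and 92 of the 103 larger and 101 of the 114 smaller windows lay on the matching side of the median background difference, 0.08. Its part in the peak differences was not tested.

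**Figure D3:**
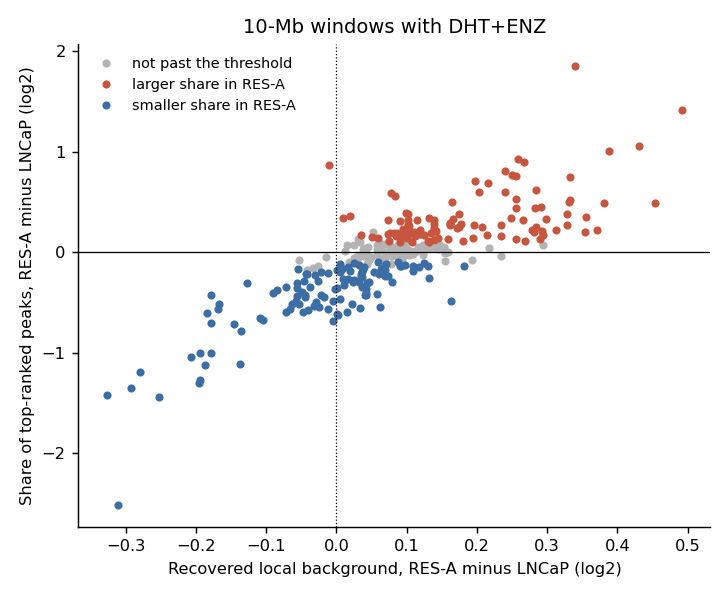
Difference in the share of top-ranked peaks (vertical, log2) against the difference in recovered local background (horizontal, log2), RES-A minus LNCaP with DHT+ENZ, for 307 windows of 10 Mb, 1 point per window. Windows with a larger share in RES-A lie mostly further right than those with a smaller share (r = 0.82).

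The windows held unequal parts of the subline-only regions. Of the RES-A-only regions 54.1% lay in windows with a larger share in RES-A and 19% in windows with a smaller one, against 37.4% and 33.6% of all merged regions. Of the LNCaP-only regions 18.7% and 56.7% lay there. In the windows that passed in neither direction 1816 regions were RES-A-only (7.76% of the regions there) and 1434 LNCaP-only (6.13%), close to the 8.36% and 7.24% of the genome. The fold enrichment calls, which are already divided by local background, were 12.5% higher and 13.1% lower in those windows. In windows with a larger share in RES-A they were 16.5% higher and 10.1% lower, and in windows with a smaller share 9.50% and 17.7%.

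Regions that responded to DHT alone were then followed into DHT+ENZ. A region was called DHT-opened in a subline when it held a top-ranked peak in 3 of 3 DHT and 0 of 3 DMSO libraries, and DHT-closed in the reverse case, so that the DHT+ENZ libraries had no part in the definition. A set defined in 1 subline stands at 0 or 100% there with DMSO and DHT by construction, which can raise or lower the share of that subline with DHT+ENZ. The subline differences of these sets are therefore given as a description, and only the sets defined in both sublines carry a test. The merged regions of all 24 libraries numbered 119666, of which each DHT+ENZ library called 41.4 to 41.5%. RES-A had 4112 DHT-opened and 2503 DHT-closed regions and LNCaP 1787 and 1440, with 396 opened and 125 closed in both. The LNCaP sets depend on DHT replicate 1, 1 of the 2 libraries of lowest depth, with 82224 deposited peaks. Every RES-A library with DHT or DMSO had at least 169514. The numbers of regions are therefore not a measure of how strongly each subline responded.

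With DHT+ENZ, every set of opened regions was called more often than with ENZ alone in both sublines, without overlap between the libraries. The 1787 regions opened in LNCaP were called at 38.1, 21.4 and 24.6% in the LNCaP DHT+ENZ libraries and at 17, 17 and 16.5% in those of RES-A. LNCaP replicate 1 stood apart from the other two, and every LNCaP value was above every RES-A value. The difference was -11.2 percentage points, and -6.17 without LNCaP replicate 1. The 4112 regions opened in RES-A were called at 51.4, 44.5 and 45.2% in LNCaP and at 47.1, 44.3 and 42.7% in RES-A. These overlapped (difference -2.35 points). They started from different levels, since the LNCaP libraries called 39.1 ± 2.57% of them with DMSO and 28.2 ± 4.61% with ENZ, whereas RES-A called 13.2 ± 2.17% with ENZ and none with DMSO by definition. From ENZ to DHT+ENZ the regions opened in RES-A gained 18.8 points in LNCaP and 31.5 in RES-A. Those opened in LNCaP gained 18.4 points in LNCaP and 8.47 in RES-A. In both sets the share thus rose more in the subline that defined the set, and the difference in gain was not tested. Fold enrichment kept this order only for the regions opened in RES-A. Among 884 of these with a peak in all 24 libraries, the median log2 change was 0.14 for LNCaP against 0.34 for RES-A. Among 132 such regions opened in LNCaP the order was reversed, with 0.03 for LNCaP against 0.15 for RES-A. For the 396 regions opened in both sublines the shares were 43.9, 20.2 and 26.8% in LNCaP and 36.4, 34.3 and 34.1% in RES-A (difference 4.63 points, exact permutation test, two-sided, adjusted p = 0.84 over 6 sets). From ENZ to DHT+ENZ these regions gained 22.8 points in LNCaP and 27.7 in RES-A. The LNCaP gains rest on ENZ means that include replicate 1, 1 of the 2 libraries of lowest depth. Without it they were 25.1 points for regions opened in both, 16.2 for those opened in RES-A and 19.6 for those opened in LNCaP.

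Among the DHT-closed regions the subline differences had no shared direction. The 2503 regions closed in RES-A were called at 57.7, 59.5 and 63.4% in the RES-A DHT+ENZ libraries and 31.4, 32.9 and 33.3% in LNCaP, without overlap (difference 27.7 points). In LNCaP the same regions were called at 36.6 ± 1.76% with DMSO and 18.9 ± 1.36% with DHT, and RES-A stood at 100% with DMSO by definition, so a higher share in RES-A was built into the set. RES-A called 79.2 ± 1.84% of them with ENZ alone, 19 points above its DHT+ENZ mean. The 1440 regions closed in LNCaP were called at 59.6, 65.6 and 61.9% in LNCaP and 58.3, 57.0 and 58.3% in RES-A (difference -4.47 points). The 125 regions closed in both had overlapping shares, 64.5 ± 7.60% and 64.8 ± 3.20% (difference 0.27 points, exact permutation test, adjusted p = 1).

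**Figure D4:**
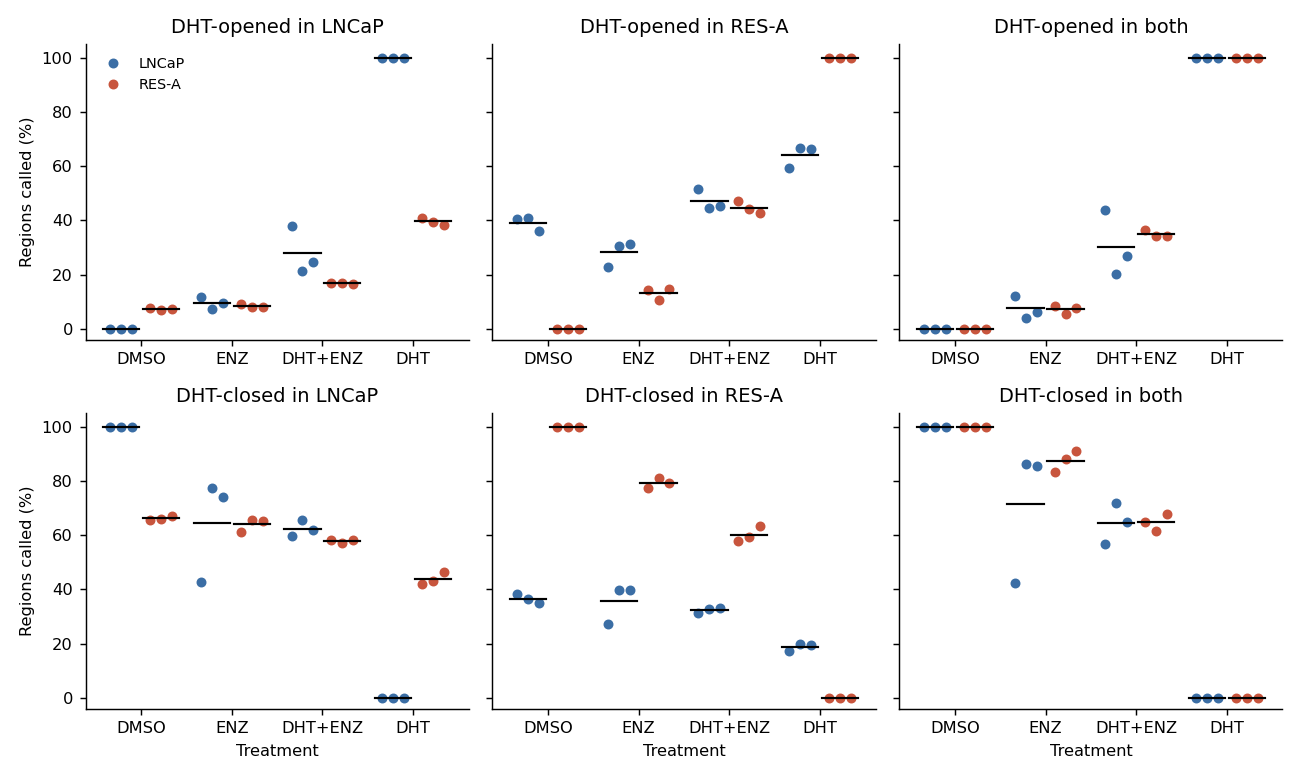
Percentage of DHT-opened (top) and DHT-closed (bottom) regions, defined in LNCaP, in RES-A or in both, that held a top-ranked peak in each library; points are libraries and lines are group means, and values of 0 and 100% with DMSO and DHT are fixed by the definition in the subline that defined the set. With DHT+ENZ the opened sets lie above ENZ in both sublines.

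A minority of the DHT-responsive regions separated the sublines completely with DHT+ENZ. Of those opened in LNCaP, 52 (2.91%) were called in 3 of 3 RES-A and 0 of 3 LNCaP libraries and 62 (3.47%) the other way, against 5.65% and 4.89% of the 119666 regions. Of those opened in RES-A, 207 (5.03%) and 304 (7.39%) did so. Of the regions closed in RES-A, 418 (16.7%) were RES-A-only and 52 (2.08%) LNCaP-only, and of those closed in LNCaP 49 (3.40%) and 113 (7.85%), so each closed set was richer in the pattern of the subline whose DMSO libraries defined it. In the fold enrichment comparison, 9.01% of 744 tested regions opened in LNCaP were higher in RES-A and 23% lower, and of 2972 opened in RES-A 8.21% were higher and 20.3% lower, against 13% and 13.5% of all tested. Of 1733 tested regions closed in RES-A 19.6% were higher and 9.58% lower, and of 1277 closed in LNCaP 19% and 12%. The median differences were -0.12, -0.12, 0.06 and 0.07 on the log2 scale, against -0.01 over all tested regions. The sets defined in both sublines did not show these shifts. Of 271 tested regions opened in both 8.86% were higher and 8.49% lower, with a median difference of 0.004. Of 123 closed in both 4.88% were higher and 5.69% lower, with a median of -0.04.

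Single regions showed how the sublines parted. The region chr10:68047461-68048053, opened in RES-A, had fold enrichments of 11.7, 9.07 and 6.95 in the RES-A DHT+ENZ libraries and 9.28, 8.23 and 8.74 with DHT, and 5.84, 4.76 and 6.66 with DMSO. In the LNCaP DHT+ENZ libraries it had no peak, 2.83 and 2.95. In RES-A the range with DHT+ENZ thus overlapped that with DHT, and both lay above DMSO. With ENZ alone RES-A had 6.93, 6.60 and 6.19 there, the highest just below the lowest DHT+ENZ value. The region chr10:12573170-12573789 had 11.4, 10.7 and 8.76 in RES-A with DHT+ENZ and 15.4, 16.0 and 14.8 with DHT, and in LNCaP 5.59, 5.07 and 3.82 with DHT+ENZ. With ENZ alone RES-A had 11.1, 8.21 and 4.76 at this region, which overlapped DHT+ENZ. In the opposite direction chr3:48923094-48923635, also opened in RES-A, had 12.3, 12.4 and 11.2 in LNCaP with DHT+ENZ and 14.3, 13.1 and 9.99 there with DMSO. In RES-A it had 7.99, 6.32 and 5.25 with DHT+ENZ, 11, 12.9 and 12.9 with DHT, and 3.67, 2.74 and no peak with ENZ alone. Of the regions opened in LNCaP, chr13:36737765-36738286 had 15.6, 13.0 and 12.6 in RES-A and 4.42, 4.62 and 4.69 in LNCaP with DHT+ENZ. RES-A also had 7.78, 9.11 and 10.7 there with DMSO. With ENZ alone it had 7.94, 13.1 and 11.4, which overlapped DHT+ENZ. These regions were chosen for their split, so the values describe them and carry no test.

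The last comparison took 33 genes in 5 lists, with all regions within 50 kb of each gene. Androgen-induced genes gain expression under hormone, androgen-repressed genes lose expression under hormone, the regulators are transcription factors of prostate epithelium, and the neuroendocrine genes mark a lineage that some treatment-resistant prostate cancers take on. In the windows of the 12 androgen-induced genes 4 of 87 tested regions were higher and 15 lower in RES-A, against 13% and 13.5% of all tested. Without centring 29 (33.3%) were higher and 4 lower, close to the 36.2% and 3.62% of all tested regions under that setting. With pileup 23 were higher and 23 lower, where 24.7% and 21.5% of all tested regions were called. The larger number of lower than higher regions was thus not seen without centring or with pileup. Of 17 regions at the 4 androgen-repressed genes 3 were higher and 3 lower. At the 7 regulators 3 of 51 were higher and 8 lower, without centring 12 (23.5%) and 0, and with pileup 17 and 9. At the 8 neuroendocrine genes 3 of 35 were higher and 2 lower, and at GAPDH and ACTB 1 of 13 each way. Over the 33 genes 12 of 228 regions (5.26%) were RES-A-only and 15 (6.58%) LNCaP-only, against 8.36% and 7.24% of all merged regions. Single regions are given with deposited values, choosing the region of largest difference per gene (lead region). That choice favours a lead past the threshold, and the share of passing leads in other windows was not computed. The number of genes with a passing lead therefore carries no test, and the leads describe each gene only.

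Of the 12 androgen-induced genes, FKBP5, STEAP4 and ACPP had a lead region that was higher in RES-A and SLC45A3, TRPM8, PMEPA1 and HPGD one that was lower, with centring, without it, after quantile normalization and with pileup alike. FKBP5 encodes a co-chaperone of steroid receptors and is strongly induced by androgen. Its lead region (chr6:35722616-35722943) had fold enrichments of 5.82, 4.47 and 3.82 in LNCaP and 12.1, 9.72 and 7.35 in RES-A (0.72 ± 0.16, limma adjusted p = 0.00265), and the gene with 50 kb on each side held 7, 7 and 7 top-ranked peaks in LNCaP and 12, 9 and 10 in RES-A. FKBP5 lies on chromosome 6, where 16 of 18 windows had a larger share of peaks in RES-A. The part of that shift in the FKBP5 counts was not tested. At ACPP, which encodes prostatic acid phosphatase, chr3:132065897-132066344 had 5.83, 6.72 and 5.75 in LNCaP and 12.4, 10.8 and 9.72 in RES-A (0.52 ± 0.13). The counts of top-ranked peaks around ACPP went the other way, with 9, 7 and 8 in LNCaP and 4, 5 and 6 in RES-A. Of its tested regions 1 was higher and 1 lower. At STEAP4, a metalloreductase gene, the lead region had 3.01, 3.14 and 3.08 against 7.27, 5.35 and 5.38 (0.63 ± 0.18). The STEAP4 window held 1 higher, 1 lower and 1 LNCaP-only region. Its start had a peak in 3 of 3 LNCaP and 1 of 3 RES-A libraries. As deposited, every RES-A library was above every LNCaP library at the lead regions of these 3 genes, which also held for the median of all tested regions. Separation was common, since the groups did not overlap, in either direction, in 27375 of the 67692 tested regions.

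PMEPA1, which encodes an androgen-induced membrane protein that restrains TGF-β signalling, had its lead region at chr20:56252653-56253072 with 8.62, 7.01 and 7.30 in LNCaP and 4.40, 3.68 and 4.62 in RES-A (-1.17 ± 0.17, limma adjusted p = 7.27e-05). HPGD, the prostaglandin-degrading dehydrogenase, had 6.14, 4.93 and 5.88 against 3.94, 3.35 and 2.56 at chr4:175373546-175374153 (-1.12 ± 0.19). The same stretch around HPGD held 3, 2 and 3 top-ranked peaks in LNCaP and 0, 1 and 0 in RES-A. HPGD lies on chromosome 4, where 14 of 19 windows had a smaller share in RES-A, and the part of that shift was not tested. SLC45A3, which encodes prostein, had 9.17, 8.58 and 8.51 against 6.28, 5.53 and 6.30 at chr1:205633858-205634362 (-0.86 ± 0.14). TRPM8, a cold-activated channel of prostate epithelium, had 11.3, 8.80 and 7.87 against 8.48, 4.21 and 5.46 (-0.99 ± 0.18), where 1 RES-A library fell within the LNCaP range. The lead region of TMPRSS2 did not pass (-0.41 ± 0.16, limma adjusted p = 0.0631). The region shared by KLK3 and KLK2 (chr19:51372522-51373150) had 9.14, 9.22 and 8.12 in LNCaP and 8.25, 9.07 and 7.85 in RES-A, was lower only after centring or quantile normalization, and NDRG1 lost its call without centring. Near the same genes a RES-A-only region, chr19:51399894-51400291, had 9.69, 8.60 and 6.82 in RES-A and a single LNCaP peak of 3.52.

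**Figure D5:**
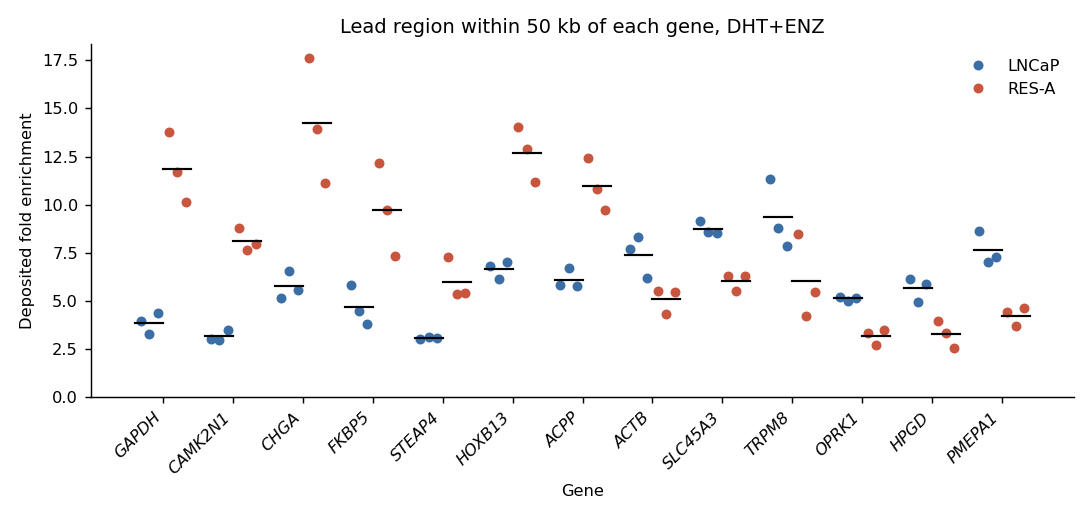
Deposited fold enrichment of the lead region within 50 kb of 13 genes in each DHT+ENZ library, LNCaP blue and RES-A red, points for libraries and lines for means. The genes are those reported singly whose lead region passed in the same direction with centring, without centring, after quantile normalization and with pileup, 7 higher and 6 lower in RES-A, ordered by the centred difference.

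Androgen-repressed genes differed in both directions. CAMK2N1, an inhibitor of a calmodulin-dependent kinase, had chr1:20820288-20820594 at 3.03, 2.98 and 3.48 in LNCaP and 8.80, 7.63 and 7.98 in RES-A (1.04 ± 0.18, limma adjusted p = 0.000273), with 0 top-ranked peaks in each LNCaP library and 2 in each RES-A library. It lies on chromosome 1, where 19 of 24 windows had a larger share in RES-A, and the part of that shift was not tested. OPRK1, the kappa opioid receptor, had 5.22, 5.01 and 5.14 against 3.34, 2.73 and 3.51 at chr8:54139833-54140362 (-1.01 ± 0.18). At the start of BCHE, which encodes butyrylcholinesterase, the 3 LNCaP DHT+ENZ libraries had peaks of 5.31, 4.79 and 4.62 and the 3 RES-A libraries had no peak of any rank. The RES-A libraries of the other treatments had a peak near that start in 9 of 9, with fold enrichments of 2.48 to 4.85, and the LNCaP ones in 9 of 9 at 3.88 to 6.24. The lead region of SESN3, a sestrin gene, passed only without centring (0.25 ± 0.13 with centring, limma adjusted p = 0.141). BCHE held 3 LNCaP-only regions and 1 RES-A-only region, and of its 6 tested regions 2 were higher and 1 lower in RES-A. One of the LNCaP-only regions (chr3:165470260-165470790) had 5.01, 5.49 and 4.05 in LNCaP and no peak in RES-A, and the RES-A-only region (chr3:165518581-165519074) had 3.61, 3.47 and 3.31 in LNCaP and 7.12, 7.19 and 6.74 in RES-A.

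Among the regulators, the homeobox factor HOXB13 had a lead region at chr17:46823169-46823955 with 6.81, 6.12 and 7 in LNCaP and 14, 12.9 and 11.2 in RES-A (0.61 ± 0.12, limma adjusted p = 0.00101). The lead regions of FOXA1, NR3C1 (the glucocorticoid receptor) and GRHL2 (a grainyhead epithelial factor) were lower after centring, from -0.69 ± 0.19 at FOXA1 to -0.78 ± 0.16 at GRHL2, and none of the 3 passed without centring. The FOXA1 window held 2 higher and 2 lower regions, with 3 RES-A-only and 2 LNCaP-only. The lead region of GATA2 did not pass (limma adjusted p = 0.275), and that of MYC passed only without centring or with pileup (limma adjusted p = 0.183 with centring). Around MYC, a growth-promoting transcription factor gene, each LNCaP library held 3 top-ranked peaks and each RES-A library 4. The RES-A-only region there (chr8:128755378-128755743) had 6.78, 5.52 and 5.43 in RES-A and a single LNCaP peak of 3.02. A LNCaP-only region at HOXB13 (chr17:46799808-46800132) had 5.07, 4.77 and 4.23 in LNCaP and no peak in RES-A.

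Neuroendocrine genes gave no shared direction. CHGA, which encodes chromogranin A, had its lead region at chr14:93412599-93413127 with 5.12, 6.56 and 5.56 in LNCaP and 17.6, 13.9 and 11.1 in RES-A (0.97 ± 0.14, limma adjusted p = 4.86e-05), while a peak within 1 kb of its start was present in 2 of 24 libraries. At the start of ENO2, the neuronal enolase, the LNCaP libraries had 4.19, 3.73 and 3.30 and the RES-A libraries no peak. The ENO2 lead region was lower after centring (-0.56 ± 0.17) but not without it. The lead regions of SYP, SOX2, INSM1 and AURKA did not pass after centring, while those of SYP, SOX2 and AURKA were higher without it, and INSM1 had no peak within 1 kb of its start in any library. EZH2, a histone methyltransferase gene, had a higher lead region (0.49 ± 0.18) that was lost with pileup. The housekeeping genes marked the scale of such single-region differences. A region 18.5 kb from the GAPDH start (chr12:6662227-6662694) had 3.96, 3.28 and 4.34 in LNCaP and 13.8, 11.7 and 10.2 in RES-A (1.3 ± 0.16), the largest lead difference of the 33 genes, and at ACTB the lead region was lower (-0.86 ± 0.16).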

How the data were processed

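FAIRE-seq was performed by the authors in biological triplicate with 50-bp single-end reads. Per the labels and methods, reads were aligned to hg19 with BWA 0.7.8-r455, duplicates were marked with Picard 1.118 and peaks were called per library with MACS2 2.1.0, whose options and control are not given in the sources used here. The deposited lists give pileup (a signal, unscaled), fold enrichment (a ratio) and −log10 p and q (the authors' values, lowest −log10 q about 1.30). Read totals are not given in the sources used here, so background was recovered as (pileup + 1)/fold - 1, which assumes that the caller added 1. Between 681 and 1142 peaks per library on other sequences were left out.

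Groups came from titles and characteristics. Regions were unions of top-ranked peaks (1-bp overlap). The log2 fold enrichment was centred on each library's median and tested with limma 3.58.1 (trend, robust, Benjamini-Hochberg). Shares were tested by exact permutation. The limma step was tested on simulated data. Members, gene lists and tests were chosen with earlier results of these data known. Regions named were the 3 strongest per direction without any opposing peak, the 5 largest limma differences per direction with groups apart, 3 windows per direction, DHT-opened regions split 3 against 0, and the largest difference per gene. Gene positions in hg19 were set from general knowledge to the nearest kb, and 30 of 33 lengths were within 2 kb of the RefSeq gene length (not STEAP4, GRHL2 and NR3C1). No hg19 annotation was used. Of the 33 genes 3 are counted in their lists and not reported singly here. Sequences are RefSeq promoters of GRCh38.p14. Replicate numbers were not taken as pairs.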

Additional observations from a re-analysis of the deposited data

How the results depend on the processing

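The counts of regions and windows depended on what was counted. RES-A-only and LNCaP-only regions numbered 3435 and 2943 with the 25000 top-ranked peaks, 15415 and 17301 with all deposited peaks, 15336 and 17143 with a −log10 q of at least 2, 11649 and 10664 as 500-bp tiles, 1083 and 615 when no peak of any rank was allowed in the other subline, and 1816 and 1434 in windows that passed in neither direction, an alternative chosen after seeing the data. Leaving out 1 library gave 7461 to 8413 and 6517 to 7872. The calls of higher and lower fold enrichment were 5729 and 5927 with 25000 peaks, 24517 and 2452 without centring, 16697 and 14523 with pileup, and 6877 to 8246 and 6458 to 8735 when 1 library was left out. With a replicate block they were 8960 and 9382, and the block moved no count by more than 1.5 times. Libraries with the same number did not vary together, with correlations of 0.07, -0.01 and 0.01 between their departures from the group mean, so the numbers were not taken as pairs. The contrast against the other treatments gave 0 calls with quantile normalization, pileup, the block or any DHT+ENZ library left out, and 1 without the 2 libraries of lowest depth. Windows of 5 Mb gave 178 larger and 201 smaller shares, and leaving out 1 library gave 95 to 100 and 108 to 114 windows of 10 Mb.

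Differences without a possible p under 0.05 changed sign in places. The difference in median peak length, -14.3 bp, became 7.67 bp with all deposited peaks and ranged from -24.7 to 1.83 bp without single libraries (1.83 without LNCaP replicate 2). The share difference for regions opened in RES-A became 0.78 points with 25000 peaks. For regions opened in both it became -11.8 with all deposited peaks and -13.2 with the q limit, and ranged from -0.42 (without LNCaP replicate 2) to 11.4. For regions closed in LNCaP it became 1.51 and 1.83 under the same settings, and for regions closed in both -4.29, -2.86 and, on autosomes only, -0.83, with a range of -3.6 to 4 without single libraries. The paired exact test over replicate numbers cannot go below 0.25 with 3 pairs. At GATA2 the lead difference turned from -0.25 to 0.0742 without centring. The cause of these shifts was not tested. The deposited lists end at a q of 0.05, so weaker peaks were not seen in any library.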
